A study of Mus musculus with 6 samples.

Results

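The 10 genes described here encode the anion exchangers, proton pump subunits and ammonia transporters of the kidney's intercalated cells, together with the transcription factor Foxi1. They were taken by symbol from count tables of 24422 genes, and all 10 were present and passed the filter on low counts. The study compared 3 kidneys of iron-deficient pups (FeD), whose dams ate a diet with 2 to 6 ppm iron, with 3 kidneys of control pups, whose dams ate a diet with 220 ppm. The study's methods call the iron-deficient diet synthetic and name a different product for the control diet. Iron and any other difference between these feeds therefore cannot be told apart. All pups were wild type C57BL/6 at postnatal day 15, and the dams kept their diets from before mating until then. The study's methods give 3 mice for the FeD model, but the number of litters is not given in the sources used here, so litter and diet cannot be told apart and P values measure the spread between these mice alone. Each library was made from mRNA enriched by its poly-A tail from total RNA of kidney, in which fewer intercalated cells and less RNA per intercalated cell cannot be told apart.

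Intercalated cells are the acid-base cells of the connecting tubule and collecting duct. The acid-secreting form (type A) pumps protons into the urine through a vacuolar H+-ATPase and returns bicarbonate to the blood through the anion exchanger AE1, whereas the bicarbonate-secreting form (type B) carries pendrin on its luminal side. Foxi1, a forkhead transcription factor, is required for these cells to form and is known to activate several of their transporter and pump genes. The cells also take part in the excretion of ammonia, through the Rhesus glycoproteins Rhbg and Rhcg.

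Promoters are shown for the pump genes Atp6v1b1 and Atp6v1g3, which held a forkhead sequence, and for the exchanger gene Slc26a4, which held none. Slc26a4 was chosen because it fell most of the 10 genes. Foxi1, Atp6v0a4 and Rhcg, not shown, also held none, and Atp6v1b1 fell too (log2FC -0.30). Whether a match bears on these changes was not tested. Each sequence is the 250 bases before the transcription start in RefSeq (build GRCm38.p6), 5′ to 3′ on the strand of the gene, in lower case; capitals mark a match, on either strand, to a forkhead sequence, which was GTAAACA or its variant ATAAACA or its variant GCAAACA or its variant ACAAACA.
Atp6v1b1, chr6:83742767-83743016, plus strand: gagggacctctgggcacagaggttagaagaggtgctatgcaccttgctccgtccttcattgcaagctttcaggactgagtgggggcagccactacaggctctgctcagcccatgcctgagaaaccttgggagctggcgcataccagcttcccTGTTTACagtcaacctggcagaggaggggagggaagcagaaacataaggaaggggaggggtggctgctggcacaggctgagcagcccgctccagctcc
Atp6v1g3, chr1:138273488-138273737, plus strand: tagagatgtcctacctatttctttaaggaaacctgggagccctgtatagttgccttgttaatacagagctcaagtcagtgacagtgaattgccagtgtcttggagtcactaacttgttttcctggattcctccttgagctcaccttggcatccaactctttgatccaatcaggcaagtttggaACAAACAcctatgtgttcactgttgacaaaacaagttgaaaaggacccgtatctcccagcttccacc
Slc26a4, chr12:31559985-31560234, minus strand: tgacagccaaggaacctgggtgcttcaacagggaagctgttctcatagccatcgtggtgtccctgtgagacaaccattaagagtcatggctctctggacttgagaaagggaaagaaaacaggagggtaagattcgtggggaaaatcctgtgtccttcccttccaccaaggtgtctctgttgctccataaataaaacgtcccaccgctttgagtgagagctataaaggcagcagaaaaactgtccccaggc
The match in Atp6v1b1 reads as GTAAACA on the opposite strand and ends 92 bases before the start, and the match in Atp6v1g3 ends 61 bases before it. RefSeq promoters were used for 6 of the 10 genes (Slc26a4, Foxi1, Atp6v1b1, Atp6v0a4, Atp6v1g3 and Rhcg). Those of Slc4a1, Slc26a7, Slc4a9 and Rhbg were left out and not searched. Of the 6 promoters used, 2 held a match, against 15.7% of 32851 promoter windows of the same length. Because genes were left out, the count of 2 of 6 does not describe all 10 genes. GTAAACA alone occurred in 3.17% of the windows and ACAAACA in 5.84%. A match is a description of the letters and not a measured binding site.

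Raw counts per kidney totalled 16189041 to 20374327 in control and 13732173 to 20853293 in FeD. Normalized counts are raw counts scaled by edgeR's TMM method to the mean library size, and a floor of 3 counts stood at 2.59 to 3.90 normalized counts per kidney. Control kidney 2 stood apart from the other control kidneys in red cell genes (Rhag at 44 raw counts, against 4 and 3), and the affected result is given with and without it. Kidney markers were present throughout: the summed normalized counts of 4 thick ascending limb markers were 106205 to 112957 in control and 80594 to 133741 in FeD kidneys, the highest in FeD kidney 3.

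In FeD kidneys, 7 of the 10 intercalated cell genes fell and 1, Foxi1, rose (adjusted P under 0.05; quasi-likelihood test of edgeR, Benjamini-Hochberg over 15145 genes). The falls were deepest in the exchangers Slc26a4, Slc4a1 and Slc26a7, which fell by more than 2-fold, and shallow in the proton pump genes Atp6v1b1 and Atp6v0a4. The exchanger gene Slc4a9 and the pump gene Atp6v1g3 did not pass. Of all tested genes, 23.3% fell and 22.4% rose by the same rule (45.7% together), and 5.69% fell and 4.34% rose at least 2-fold. The median log2 fold change (log2FC, FeD against control) was -0.40 over the 10 genes and -0.00 over all tested genes. No overlap between the groups was seen in 8 of the 10 genes, against 58.1% of all tested genes; every FeD kidney was lower in 7 of the 10 (29.7% of all genes) and higher in 1 (28.4%). Summed over the 10 genes, normalized counts were 23952, 25258 and 26552 in control kidneys and 19754, 18777 and 18482 in FeD kidneys. The call for Foxi1 was lost when control kidney 1 or control kidney 2 was left out, which left 0 genes higher (log2FC 0.32 and 0.37, adjusted P = 0.063 and 0.064, edgeR). Those for Slc26a7, Atp6v1b1 and Atp6v0a4 were lost in 3, 1 and 7 of 13 alternative settings.

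**Figure D1:**
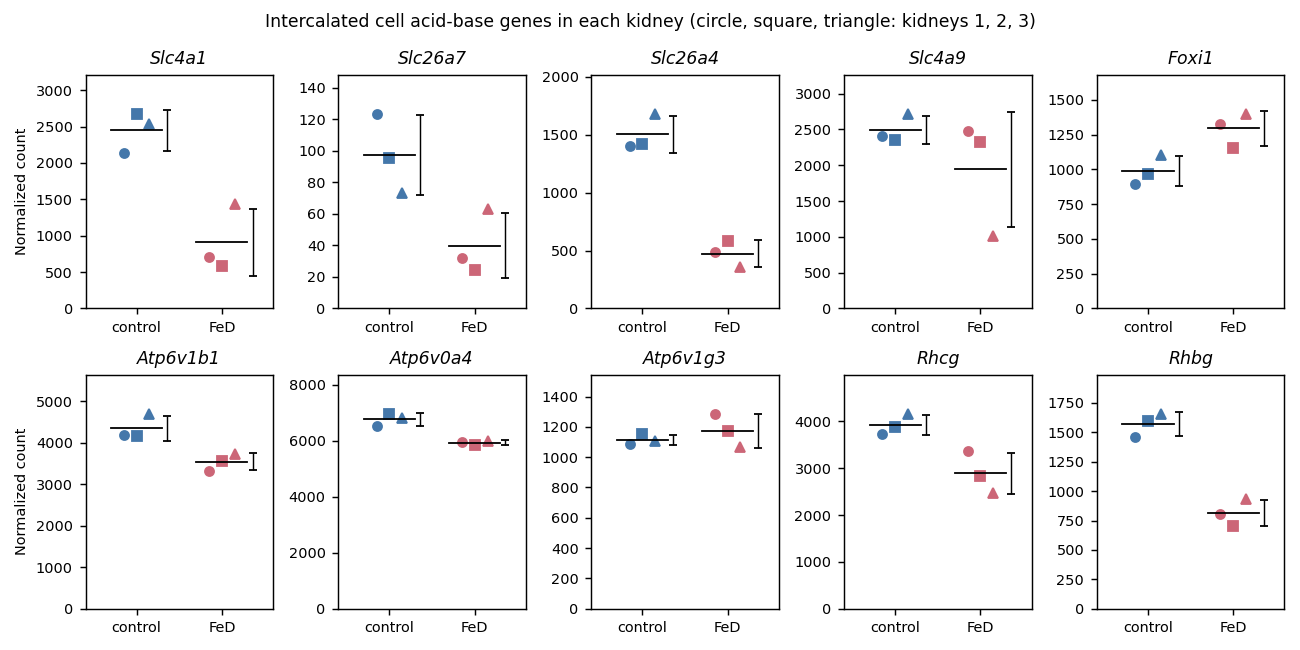
Normalized counts (vertical axes, from 0) of the 10 intercalated cell genes in each control and FeD kidney; symbols stand for kidneys 1 to 3, horizontal lines for means and bars for SD (n = 3). All FeD kidneys lay below all control kidneys in 7 panels and above them in that of Foxi1, and the groups overlapped in those of Slc4a9 and Atp6v1g3.

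Slc4a1 encodes AE1, the basolateral chloride-bicarbonate exchanger of type A cells (chromosome 11, 102210138 to 102227517, minus strand; mm9, as are all gene positions here). It had 2134, 2679 and 2537 normalized counts in control kidneys 1, 2 and 3 and 713, 578 and 1430 in FeD kidneys 1, 2 and 3. The groups did not overlap, and FeD kidney 3 lay nearest to the controls. The fitted level in FeD was 37.3% of control (log2FC -1.42, standard error, SE, 0.29, adjusted P = 0.0051, edgeR). Without FeD kidney 3 the log2FC was -1.90, and with each kidney left out in turn it stayed between -1.90 and -1.17.

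AE1 is also the main membrane protein of red cells, and the counts do not separate its kidney and red cell transcripts. Of 20 red cell genes listed, 19 were in the tables, 6 globin genes were listed at 0 in all 6 kidneys, and 9 passed the filter. Of these 9, 0 rose and 2 fell (edgeR), beside 22.4% and 23.3% of all tested genes, the transcription factor Klf1 (log2FC -0.81) and the mitochondrial iron importer Slc25a37 (log2FC -0.35); 3 had an unadjusted P under 0.05, and DESeq2 called 0 higher and 4 lower. Without control kidney 2 these counts were 1 higher and 1 lower. The median log2FC of the 9 red cell genes tested was -0.71, against -0.00 over all tested genes, and 7 of the 9 did not pass (edgeR). The list summed to 1689, 2710 and 1804 normalized counts in control kidneys and to 1608, 1466 and 1322 in FeD kidneys. Alas2, the red cell enzyme of heme synthesis, had 336, 761 and 488 normalized counts in control and 413, 200 and 92.4 in FeD kidneys, and its groups overlapped (adjusted P = 0.081, edgeR). Rhag, the red cell Rhesus glycoprotein, had at most 5 raw counts in every kidney but control kidney 2, which had 44. Epb42 had 17.3, 67.5 and 17.8 in control and 72.0, 44.1 and 65.6 in FeD kidneys. Without control kidney 2, the kidney richest in Rhag, the log2FC of Slc4a1 was -1.36 (adjusted P = 0.024, edgeR).

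Slc26a7, a basolateral anion transporter of acid-secreting cells in the medullary collecting duct, lies on chromosome 4 from 14429577 to 14548952 on the minus strand. It was the least abundant of the 10 genes, with 124, 95.1 and 73.0 normalized counts in control and 32.0, 24.7 and 63.0 in FeD kidneys. The groups did not overlap, but the gap between control kidney 3 and FeD kidney 3 was narrow. The fall was -1.25 on the log2 scale (SE 0.35, adjusted P = 0.021, edgeR). The call was lost without control kidney 1, control kidney 2 or FeD kidney 1 (adjusted P = 0.079, 0.057 and 0.077, edgeR), and over these and the other 10 alternatives the adjusted P was 0.0019 to 0.079.

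Slc26a4 encodes pendrin, the luminal chloride-bicarbonate exchanger of type B cells, and lies on chromosome 12 from 32204692 to 32244834 on the minus strand. It had 1407, 1418 and 1684 normalized counts in control kidneys and 485, 582 and 356 in FeD kidneys. The highest FeD kidney was well below the lowest control kidney. Its log2FC of -1.67 (SE 0.17, adjusted P = 0.00018, edgeR) was the deepest of the 10 genes, a level of 31.4% of control. With each kidney left out in turn it ranged from -1.82 to -1.49.

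Slc4a9 encodes AE4, a basolateral transporter of type B cells, and lies on chromosome 18 from 36687805 to 36715909 on the plus strand. It had 2414, 2359 and 2722 normalized counts in control and 2475, 2331 and 1016 in FeD kidneys. FeD kidneys 1 and 2 lay at control levels and FeD kidney 3 alone was low. The difference did not pass (log2FC -0.37, SE 0.28, adjusted P = 0.31, edgeR), and without FeD kidney 3 the log2FC was -0.04.

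FeD kidney 3 did not deviate in the same direction for both cell forms. Among FeD kidneys it had the highest counts of Slc4a1 and Slc26a7 and the lowest of Slc26a4 and Slc4a9. It also had the lowest sum of 3 distal convoluted tubule markers (6191, against 9724 and 8890 in FeD kidneys 1 and 2, and 21774 to 27322 in control kidneys) and the highest sum of 11 principal cell markers in the same duct (67547, against 61616 and 45061), but not of the 9 markers without Aqp2 and Aqp3 (21917, against 22381 and 20237). Whether the makeup of the sampled tissue had a part in these differences was not tested.

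**Figure D2:**
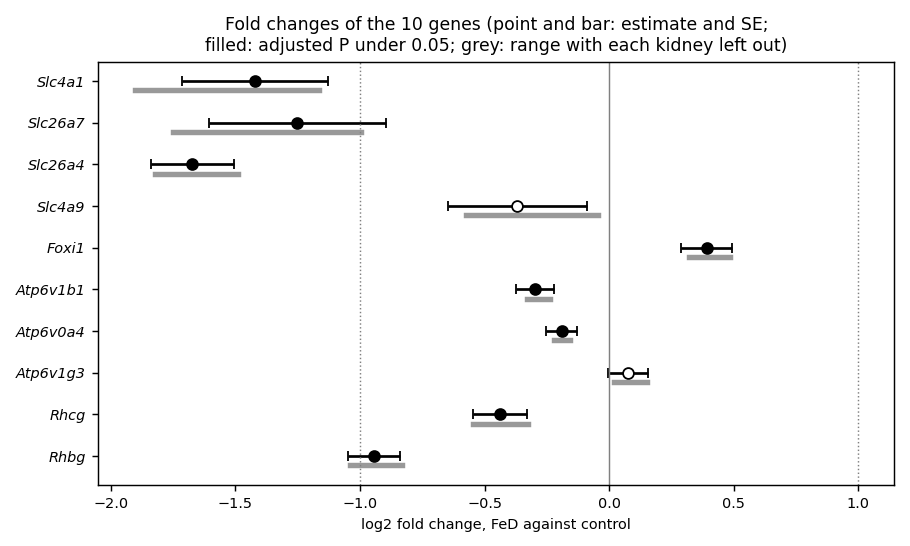
Log2FC of the 10 genes, FeD against control (points, with SE as black bars; filled at an adjusted P under 0.05, edgeR), and the range with each kidney left out in turn (grey bars). Slc26a4, Slc4a1 and Slc26a7 lay left of -1, and only Foxi1 among the filled points lay right of 0.

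Foxi1 lies on chromosome 11 from 34104338 to 34108089 on the minus strand. It had 897, 967 and 1104 normalized counts in control kidneys and 1331, 1157 and 1403 in FeD kidneys. The groups did not overlap, although FeD kidney 2 lay close to control kidney 3. The log2FC was 0.39 (SE 0.10, adjusted P = 0.014, edgeR), a rise to 131% of control. Over the 13 alternatives it stayed between 0.32 and 0.49. The tested genes whose mean-centred log2 profile over the 6 kidneys lay nearest to that of Foxi1 were Elmo2, Zcchc9, Tmem43, Prss12 and Arl4d, at root-mean-square differences of 0.038, 0.043, 0.046, 0.051 and 0.053. Among the other 9 intercalated cell genes the nearest was Atp6v1g3 at 0.22, which ranked 4173 among all tested genes by nearness, and the farthest was Slc26a4 at 1.08.

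The 3 proton pump genes encode the forms of the vacuolar H+-ATPase subunits that intercalated cells use in place of the common ones. Atp6v1b1, the B1 subunit of the catalytic sector (chromosome 6, 83693011 to 83708803, plus strand), had 4181, 4155 and 4694 normalized counts in control and 3320, 3560 and 3727 in FeD kidneys. It fell in all FeD kidneys below the lowest control kidney (log2FC -0.30, SE 0.08, adjusted P = 0.013, edgeR), a call lost without control kidney 3 (adjusted P = 0.056, edgeR; 0.0033 to 0.056 over the 13 alternatives). Atp6v0a4, the a4 subunit of the membrane sector (chromosome 6, 37998483 to 38074586, minus strand), was the gene with the most counts, 6524, 6964 and 6814 in control and 5944, 5836 and 6010 in FeD kidneys. The groups were separate by a small margin, and the log2FC was -0.19 (SE 0.06, adjusted P = 0.038, edgeR). This call was lost under 7 of 13 alternatives, among them the replicate block (adjusted P = 0.093, edgeR), no filter on low counts (adjusted P = 0.050, edgeR) and each control kidney, FeD kidney 1 or FeD kidney 2 left out (adjusted P from 0.066 to 0.15, edgeR). Exons of D630045J12Rik on the same strand and of Tmem213 on the opposite strand together cover 6.45% of its exon bases, and reads there may come from any of these genes. Atp6v1g3, the G3 subunit of the catalytic sector (chromosome 1, 140170315 to 140186037, plus strand), had 1085, 1152 and 1106 normalized counts in control and 1286, 1170 and 1065 in FeD kidneys. Its groups overlapped and it did not pass (log2FC 0.07, SE 0.08, adjusted P = 0.48, edgeR).

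Rhcg carries ammonia across the luminal and basolateral membranes of intercalated and principal cells (chromosome 7, 86738249 to 86762543, minus strand). It had 3728, 3871 and 4161 normalized counts in control and 3360, 2834 and 2480 in FeD kidneys. All FeD kidneys were below all control kidneys, with a log2FC of -0.44 (SE 0.11, adjusted P = 0.012, edgeR). Rhbg, the basolateral ammonia transporter (chromosome 3, 88046796 to 88091132, minus strand), had 1458, 1599 and 1657 normalized counts in control and 809, 705 and 931 in FeD kidneys. The FeD level was 52.0% of control, just short of a 2-fold fall, and the groups were widely separate (log2FC -0.94, SE 0.10, adjusted P = 0.00030, edgeR). Both calls held under all 13 alternatives. An exon of 1700021C14Rik on the same strand covers 6.38% of the exon bases of Rhbg.

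Levels were compared between genes as normalized CPM (counts scaled to a common library size) per kilobase of mm9 exon. In control kidneys the order was Atp6v1b1 (126 ± 8.83, SD, n = 3), Rhcg (98.3 ± 5.53), Atp6v0a4 (76.2 ± 2.52), Slc4a9 (43.8 ± 3.43), Rhbg (38.7 ± 2.53), Atp6v1g3 (33.1 ± 1.01), Slc4a1 (28.1 ± 3.24), Slc26a4 (27.4 ± 2.86), Foxi1 (23.5 ± 2.50) and Slc26a7 (1.00 ± 0.262). Kidneys overlapped between the neighbours Slc4a1 and Slc26a4, and between Slc26a4 and Foxi1. In FeD kidneys the leading 3 genes were the same, at 103 ± 5.95, 72.5 ± 11.1 and 66.8 ± 0.990, with overlap between Rhcg and Atp6v0a4. Foxi1, at 30.8 ± 3.00, then stood above Rhbg (20.1 ± 2.79), Slc4a1 (10.4 ± 5.25) and Slc26a4 (8.63 ± 2.07), without overlap with Rhbg. Atp6v1g3, Slc4a9 and Foxi1 overlapped as neighbours, as did Slc4a1 and Slc26a4, and Slc26a7 remained lowest at 0.411 ± 0.210.

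**Figure D3:**
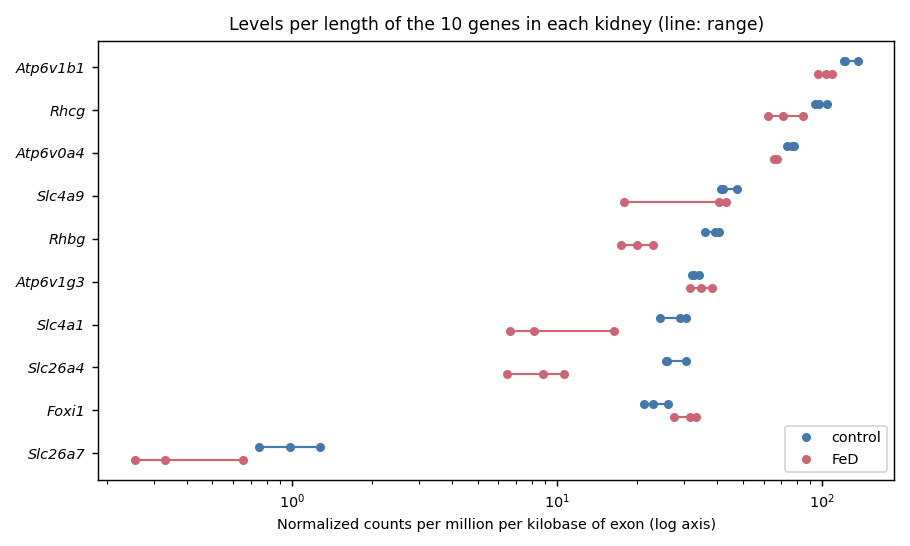
Levels of the 10 genes in each kidney as normalized CPM per kilobase of exon (log axis), ordered by the control mean; points are kidneys and lines the range of each group. The FeD points of Slc26a4 and Slc4a1 lay below those of Foxi1, whereas in control kidneys these genes had similar levels.

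Ratios of raw counts within a kidney do not depend on library scaling and were compared for 5 pairs by an exact two-sided permutation test, which cannot give a P below 0.10 with 3 kidneys against 3. Slc4a9 to Slc26a4, both of type B cells, had log2 ratios of 0.78, 0.73 and 0.69 in control and 2.35, 2.00 and 1.51 in FeD kidneys. The difference of 1.22 was separate between the groups (exact permutation P = 0.10, the smallest possible; adjusted P = 0.25 over the 5 pairs). Rhcg to Rhbg had log2 ratios of 1.35, 1.28 and 1.33 in control and 2.05, 2.01 and 1.41 in FeD kidneys, a difference of 0.51 in which all FeD kidneys were higher (exact permutation P = 0.10, adjusted P = 0.25). Atp6v1b1 to its common counterpart Atp6v1b2 differed by -0.20 and Atp6v0a4 to its counterpart Atp6v0a1 by -0.29 (exact permutation P = 0.20 for each, adjusted P = 0.25), and the kidneys overlapped in both. Slc26a4 to Slc26a7 ranged from 3.50 to 4.52 in control and from 2.49 to 4.52 in FeD kidneys and did not differ beyond that spread (exact permutation P = 0.90), and its difference of -0.33 changed to 0.24 without FeD kidney 3.

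**Figure D4:**
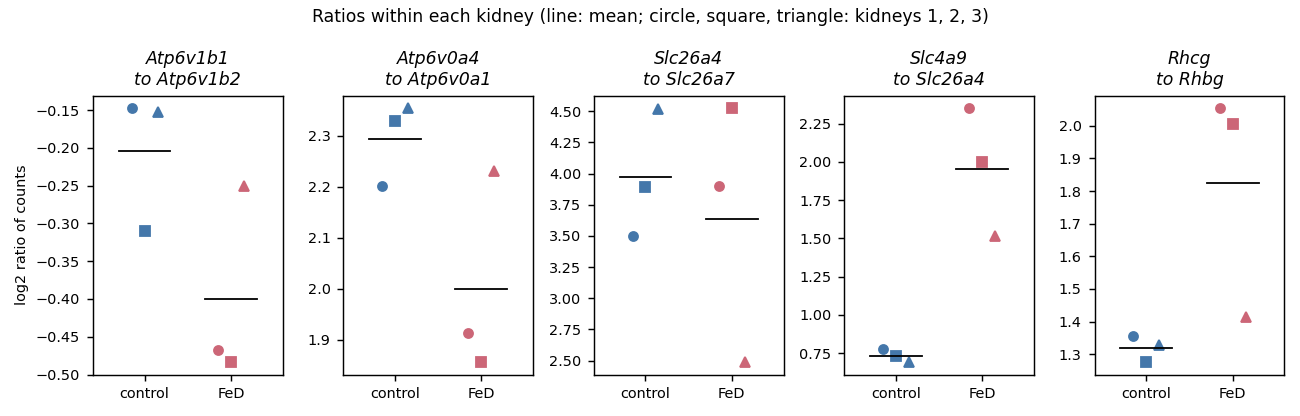
Log2 ratios of raw counts of 5 gene pairs within each control and FeD kidney (symbols, kidneys 1 to 3; lines, means; axes do not start at 0). The groups were separate for Slc4a9 to Slc26a4 and for Rhcg to Rhbg and overlapped in the other 3 panels.

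The other subunits of the vacuolar H+-ATPase were taken as a list of 22 genes, of which 20 were tested; Atp6v0c was listed at 0 in all kidneys and Atp6v1e2 did not pass the filter. Of these 20, 9 fell, 2 rose and 9 did not pass (edgeR), against 23.3% lower and 22.4% higher of all tested genes, with a median log2FC of -0.19. The number of falls was 5 without control kidney 2 or control kidney 3. A membrane sector subunit, Atp6v0e2, changed most, from 749, 766 and 831 normalized counts in control to 268, 360 and 265 in FeD kidneys (log2FC -1.40, SE 0.13, adjusted P = 0.00013, edgeR), and was the only member of the list to change 2-fold. Atp6v1f of the catalytic sector fell by 0.54 on the log2 scale. Atp6v0d2, the membrane sector subunit form that is prominent in kidney and osteoclasts, rose from 914, 1000 and 980 to 1433, 1565 and 1311 normalized counts (log2FC 0.57, adjusted P = 0.00088, edgeR). Atp6v1c2, another tissue-restricted form, fell by 0.23 on the log2 scale (adjusted P = 0.031, edgeR). The common forms Atp6v1b2 (log2FC -0.10) and Atp6v0a1 (log2FC 0.11) did not pass.

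Of 21 other genes known from intercalated cells, all tested, 8 rose, 8 fell and 5 did not pass (edgeR), against 22.4% higher and 23.3% lower of all tested genes, with a median log2FC of 0.12. The number of rises was 5 without control kidney 1 or control kidney 2. These counts are of whole kidney and do not show in which cells a listed gene changed. Bsnd (barttin), a chloride channel subunit, fell from 3609, 3589 and 3965 to 1887, 1710 and 1956 normalized counts (log2FC -1.01, adjusted P = 5.2e-05, edgeR). The vasopressin receptor Avpr1a rose from 340, 334 and 372 to 601, 671 and 661 normalized counts (log2FC 0.88, adjusted P = 0.00017, edgeR).

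Of 3 carbonic anhydrases in this list, enzymes that interconvert carbon dioxide and bicarbonate, 2 fell, Car12 with a log2FC of -0.79 (adjusted P = 0.00018, edgeR) and Car2 with -0.69 (adjusted P = 0.0043, edgeR). Car15, named after its values were seen, rose from 2927, 3135 and 3404 to 5407, 3864 and 8097 normalized counts (log2FC 0.88, adjusted P = 0.015, edgeR). Exons of Gm20518 on the same strand cover 82.0% of the exon bases of Car15, and reads there may come from either gene. Insrr, a receptor that senses alkaline fluid in type B cells, fell from 1122, 1138 and 1301 to 684, 644 and 499 normalized counts (log2FC -0.97, adjusted P = 0.00060, edgeR). Aqp6, a channel in the vesicles of type A cells, fell by 0.36 on the log2 scale (adjusted P = 0.0018, edgeR). The transcription factor Tfcp2l1 rose with Foxi1 in direction (log2FC 0.34, adjusted P = 0.012, edgeR), as did the receptor Kit (0.33, adjusted P = 0.0051), whereas the transcription factor Hmx2 (-0.46, adjusted P = 0.035) and the Notch ligand Jag1 (-0.46, adjusted P = 0.026) fell. The catalytic subunits of the potassium-exchanging proton pumps, named after their values were seen, moved in opposite directions. Atp12a rose from 112, 146 and 109 to 361, 365 and 276 normalized counts (log2FC 1.45, adjusted P = 0.00033, edgeR), and Atp4a fell from 424, 430 and 513 to 262, 197 and 239 (log2FC -0.97, adjusted P = 0.00071, edgeR).

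**Figure D5:**
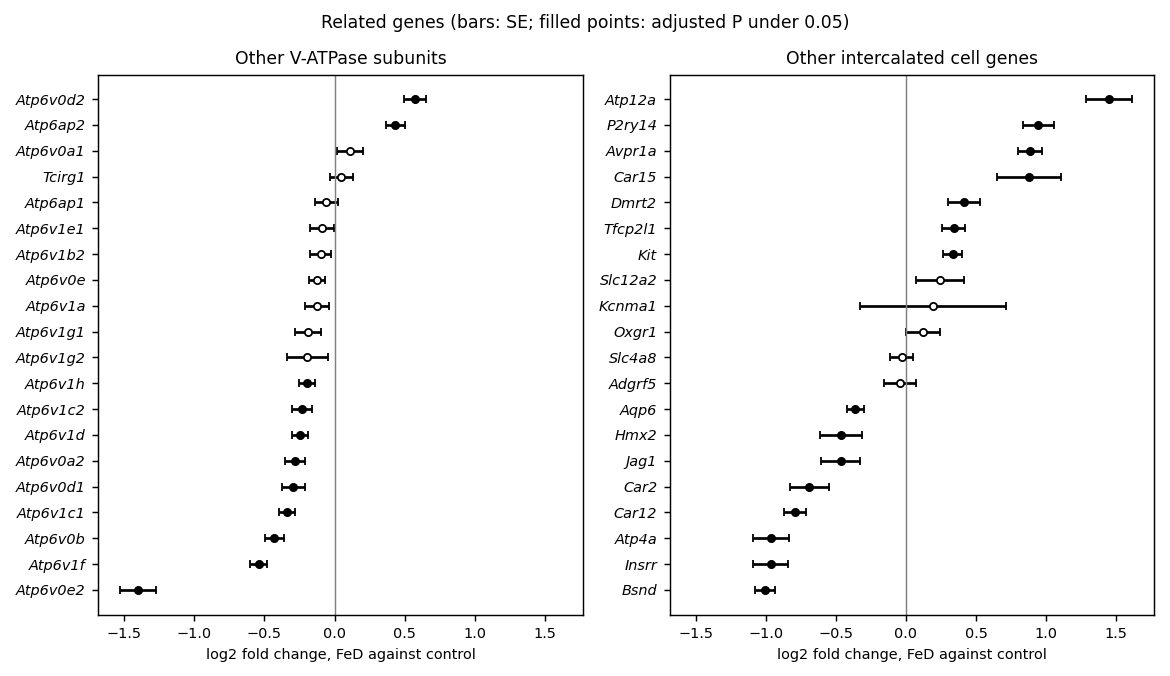
Log2FC (points, SE as bars; filled at an adjusted P under 0.05, edgeR) of 20 other vacuolar H+-ATPase subunits and of 20 of the 21 other genes of intercalated cells, FeD against control. The pump subunits lay between -0.54 and 0.57 except for Atp6v0e2 at -1.40, and the other list spread from Bsnd at -1.01 to Atp12a at 1.45.

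Principal cells share the collecting duct with intercalated cells. Of 11 principal cell markers, 5 rose, 2 fell and 4 did not pass (edgeR), against 22.4% higher and 23.3% lower of all tested genes, with a median log2FC of 0.22. The number of falls was 0 without control kidney 2 or control kidney 3 and 1 without FeD kidney 1 or FeD kidney 2. The water channel Aqp3 rose from 3711, 3937 and 5431 to 9673, 7136 and 11146 normalized counts (log2FC 1.10, adjusted P = 0.0023, edgeR) and Aqp2 had a log2FC of 1.13 (adjusted P = 0.0093, edgeR). The sodium channel subunit Scnn1g rose by a log2FC of 0.75 (adjusted P = 0.00080, edgeR) and the transcription factor Gata3 by 0.47 (adjusted P = 0.0063, edgeR). The markers that fell, named after their values were seen, were the vasopressin receptor Avpr2 (log2FC -0.67, adjusted P = 0.031, edgeR) and Hsd11b2, the enzyme that inactivates glucocorticoids in these cells (log2FC -0.30, adjusted P = 0.025, edgeR). Exons of Arhgap4 on the opposite strand cover 81.3% of the exon bases of Avpr2. The strand setting of the counts is not known, so reads there may come from either gene. The list summed to 33357 to 43388 normalized counts in control and to 45061 to 67547 in FeD kidneys, and Aqp2 and Aqp3 made up most of the difference: the other 9 markers, a split chosen after seeing the data, summed to 19224, 19923 and 21390 in control and to 22381, 20237 and 21917 in FeD kidneys, which overlapped.

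In the proximal tubule, acid is reclaimed as bicarbonate and ammonia is made. Of 10 proximal acid-base genes, 3 rose, 2 fell and 5 did not pass (edgeR), shares near the 22.4% higher and 23.3% lower of all tested genes, with a median log2FC of -0.01. The basolateral sodium bicarbonate cotransporter Slc4a4 rose (log2FC 0.57, adjusted P = 0.0015, edgeR), as did the glutamine transporter Slc38a3 (0.41, adjusted P = 0.0014), and the membrane carbonic anhydrase Car14 fell (-1.17, adjusted P = 0.00022). Named after their values were seen, the other genes that passed were the sodium bicarbonate cotransporter Slc4a7, which rose (log2FC 0.69, adjusted P = 0.0041, edgeR), and the membrane carbonic anhydrase Car4, which fell (log2FC -0.38, adjusted P = 0.0018, edgeR). The number of falls was 5 without FeD kidney 3. For comparison, 5 of 6 proximal tubule markers, 2 of 3 distal convoluted tubule markers, 1 of 4 thick ascending limb markers and 0 of 4 podocyte markers fell (edgeR), and 0 of these markers rose, beside the same 23.3% and 22.4% of all genes. The podocyte markers included 0 with an unadjusted P under 0.05.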

How the data were processed

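Per the labels, the authors called bases with CASAVA 1.8.2, trimmed reads with Trimmomatic, aligned them to mm9 with TopHat2 2.0.11 and counted reads per gene with HTSeq, by their methods from uniquely mapped reads; the deposited values are raw counts, without normalization or pooling. The annotation, counting mode and strand setting are not given in the sources used here, so reads of overlapping genes can be misassigned. Kidneys were grouped by their labels.

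edgeR 4.0.16 (R 4.3.3) was used with filterByExpr (15145 of 24422 genes kept), TMM scaling, the quasi-likelihood test and Benjamini-Hochberg adjustment, called at an adjusted P under 0.05. The coefficient of variation between kidneys was 12.8%. A standard error is the log2 fold change divided by the square root of F. The floor of 3 counts covers counting error only. Ratios used counts plus 0.5 and an exact permutation test. In simulated FeD against control counts (15034 genes), edgeR recovered 191 of 200 genes changed 2-fold, with 7 false calls. DESeq2 1.42.0 recovered 181, with 12 false calls (15145 genes). The simulation used the same dispersion for all genes and both groups and held no smaller changes. Its rates therefore do not carry over to smaller changes or to groups of unequal spread. Pairs of libraries within a group differed by more than sampling noise, and FeD pairs more than control pairs (chi-square per degree of freedom 3.77 to 7.36 in control and 11.5 to 30.4 in FeD). Positions and exon lengths came from GENCODE for NCBIM37 (mm9), in which 103 of 110 list genes matched a single gene. Of the 10 genes, Atp6v0a4 and Rhbg shared 4.62% and 0.769% of 100-base transcript windows with another protein-coding gene, and the others 0%.

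Named were all 10 genes, genes of the ratios, fixed list genes and the 3 with the smallest adjusted P in each related list; exceptions are marked. The values of 2 list genes are not reported here. The genes and lists were chosen with earlier results of these data known. Alternatives were other scalings and filters, DESeq2, the replicate number as a block, and each kidney left out.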

Additional observations from a re-analysis of the deposited data

How the results depend on the processing

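Slc4a1, Slc26a4, Rhcg and Rhbg kept their direction and their call in all 13 alternatives, and the calls of Slc26a7, Foxi1, Atp6v1b1 and Atp6v0a4 were lost in 3, 2, 1 and 7 of them. When kidneys were omitted singly, the number of the 10 genes higher was 0 to 1, lower 5 to 7, higher at least 2-fold 0 in each case and lower at least 2-fold 2 to 4. In the same settings the numbers higher and lower were 2 to 3 and 5 to 10 for other pump subunits, 5 to 9 and 6 to 7 for other intercalated cell genes, 4 to 6 and 0 to 3 for principal cell markers, 3 to 4 and 2 to 5 for proximal acid-base genes, and 0 to 1 and 1 to 3 for red cell genes. DESeq2 called 4 red cell genes lower; the cause was not tested. The log2 ratio differences then ranged from -0.27 to -0.16 for Atp6v1b1 to Atp6v1b2, -0.41 to -0.22 for Atp6v0a4 to Atp6v0a1, -0.78 to 0.24 for Slc26a4 to Slc26a7 (reversed without FeD kidney 3, at 0.24), 1.02 to 1.44 for Slc4a9 to Slc26a4 and 0.39 to 0.71 for Rhcg to Rhbg.

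Replicate numbers 1 to 3 occur in both groups but belong to different pups. Deviations of same-numbered kidneys from their group means correlated at -0.16, 0.01 and -0.04 across genes, so the numbers were not taken as pairs. With the replicate block 6 of the 10 genes were lower and 1 higher, and 6444 rather than 6924 of all genes passed. Leaving out globin and mitochondrial genes removed no tested gene. The median log2FC of all genes lay between -0.01 and 0.01 in all settings. With 3 kidneys a group, small changes such as that of Atp6v0a4 are near the limit of detection.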
